A study of Mus musculus with 9 samples.

Results

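A set of 10 genes of the glutathione system and of cystine uptake were followed in ventricular zone cells of newborn mice: Mgst1, Mgst3, Slc7a11, Gclc, Gclm, Gss, Gsr, Gstm1, Nfe2l2 and Keap1. They were chosen by gene symbol, and all 10 of 10 were measured, each by 1 probe set that names that gene alone, among 19938 genes in all. The mice, of the C57BL/Ka strain, were of 3 genotypes with 3 arrays each: WT (Prdm16+/+, 2 wild-type alleles), HET (Prdm16LacZ/+, 1 wild-type allele) and KO (Prdm16LacZ/LacZ, 0 wild-type alleles). The animals were untreated, and the cells went from dissection into RNA extraction with no culture step. LacZ is a bacterial reporter gene that marks the mutant allele. No label ties an array to its own animal or litter, so every p-value rests on the spread among arrays of a genotype. Part of that spread may be technical. Levels of the female marker Xist, given below, differed within each genotype, so its arrays did not all come from 1 animal.

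Glutathione is a tripeptide of glutamate, cysteine and glycine that keeps the cell interior reduced and is joined to reactive molecules so that they can be removed. Its supply is usually limited by cysteine, which cells import in its oxidised form, cystine, through the carrier that Slc7a11 encodes. Gclc and Gclm form the ligase of the first step of synthesis, Gss completes the tripeptide, Gsr reduces the oxidised form with NADPH, and the transferases and peroxidases use it. The factor NRF2, encoded by Nfe2l2, turns on many of these genes through antioxidant response elements, and KEAP1 marks NRF2 for destruction. In brain, astrocytes and their radial glial precursors hold much of this capacity. PRDM16 is a zinc finger regulator of stem cells, and published work on its loss in such cells dealt with oxidative stress.

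Values are log2 levels as the authors deposited them. A difference of 1 is a 2-fold change. Over all 28940 probe sets, and not only the 19938 genes, the median of an array was at 5.80 to 5.92. The lower quartile was at 4.53 to 4.68. Array medians and quartiles named below are those of all probe sets. Prdm16 itself lay between 7.23 and 7.62 in WT, 6.995 and 7.34 in HET and 5.69 and 6.41 in KO (KO minus WT -1.38, SE 0.18, limma p adjusted by Benjamini-Hochberg over all genes = 0.010). HET replicate 1 and KO replicate 2 fitted their genotypes least well, with array weights of 0.547 and 0.364. Xist, which marks female tissue, was high on WT replicate 1, HET replicate 1, KO replicate 2 and KO replicate 3 (10.04 to 11.002) and at most 4.99 on the other 5, so the sexes were not evenly spread over the genotypes. Calls that ended when both of these arrays were left out are given with that value.

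Slc7a11, the cystine carrier subunit, fell in KO cells. Its level was 5.98, 5.38 and 5.82 on the WT arrays, 5.39, 5.03 and 5.07 on the HET arrays, and 4.56, 4.85 and 4.92 on the KO arrays. Every KO array lay below every WT and every HET array, while WT replicate 2 lay just below HET replicate 1. The KO mean was 1.93-fold below WT (difference -0.95 log2, SE 0.16, 95% interval -1.31 to -0.59, limma adjusted p = 0.038, 3 arrays per genotype). HET minus WT was -0.56 (SE 0.16, interval -0.92 to -0.21), which did not pass the test (adjusted p = 0.99, unadjusted p = 0.0056). KO minus HET was -0.39 (SE 0.16, interval -0.75 to -0.03, adjusted p = 0.78), so HET stood at 59.3% of the KO change, a share that rests on the same WT arrays at both ends. The KO against WT call was fragile: it was lost without WT replicate 1 (adjusted p = 0.19), WT replicate 3 (0.17), HET replicate 2 (0.076), HET replicate 3 (0.069), KO replicate 1 (0.15), KO replicate 2 (0.099) or KO replicate 3 (0.10), with HET replicate 1 and KO replicate 2 both left out (0.10), and with HET arrays kept out of the fit (0.15), while the difference stayed between -1.13 and -0.83 when each array was left out. The KO against WT call was kept in 9 of 19 other settings. Among these was Xist as a covariate, added after seeing the data (difference -1.09, SE 0.11, limma adjusted p = 0.0034). Within each genotype, Slc7a11 was higher on the arrays with high Xist. On KO replicate 1 the Slc7a11 level was below the lower quartile of that array.

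Mgst1 encodes a membrane-bound glutathione transferase that also reduces lipid peroxides, and it fell by the largest amount of the 10 genes. It was measured at 5.77, 5.83 and 5.37 in WT, at 5.49, 5.42 and 5.37 in HET, and at 4.73, 4.52 and 4.76 in KO. The KO arrays stood clear of both other genotypes, whereas HET and WT met, with WT replicate 3 and HET replicate 3 at exactly the same value. The fall in KO was 1.99-fold against WT (-0.99 log2, SE 0.12, interval -1.26 to -0.72, limma adjusted p = 0.0078) and 1.69-fold against HET (-0.76, SE 0.12, interval -1.03 to -0.49, adjusted p = 0.044). HET minus WT was -0.23 (SE 0.12, interval -0.50 to 0.04, adjusted p = 0.99), or 23.5% of the KO change. The call against WT was lost without WT replicate 1 (adjusted p = 0.059), with HET replicate 1 and KO replicate 2 left out (0.056), and with HET arrays kept out of the fit (0.078). The call against HET was kept in 3 of 19 other settings: of the single arrays, only leaving out WT replicate 3 kept it (adjusted p = 0.018), and the others gave 0.070 to 0.25. With HET replicate 1 and KO replicate 2 both left out, the limma adjusted p against HET was 0.16. KO replicate 2 lay below the lower quartile of its array, so a low KO level may hold background as well as transcript.

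Mgst3, a second membrane transferase of the same superfamily, showed no call in any comparison. It lay at 6.08, 5.94 and 6.05 in WT, 5.57, 6.81 and 6.35 in HET, and 5.88, 6.10 and 5.66 in KO. The HET arrays spanned the values of all other arrays on both sides (SD 0.62 in HET against 0.073 in WT). KO minus WT was -0.14 (SE 0.25, interval -0.69 to 0.41), so the interval does not reach a fall as large as the -0.99 of Mgst1.

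**Figure D1:**
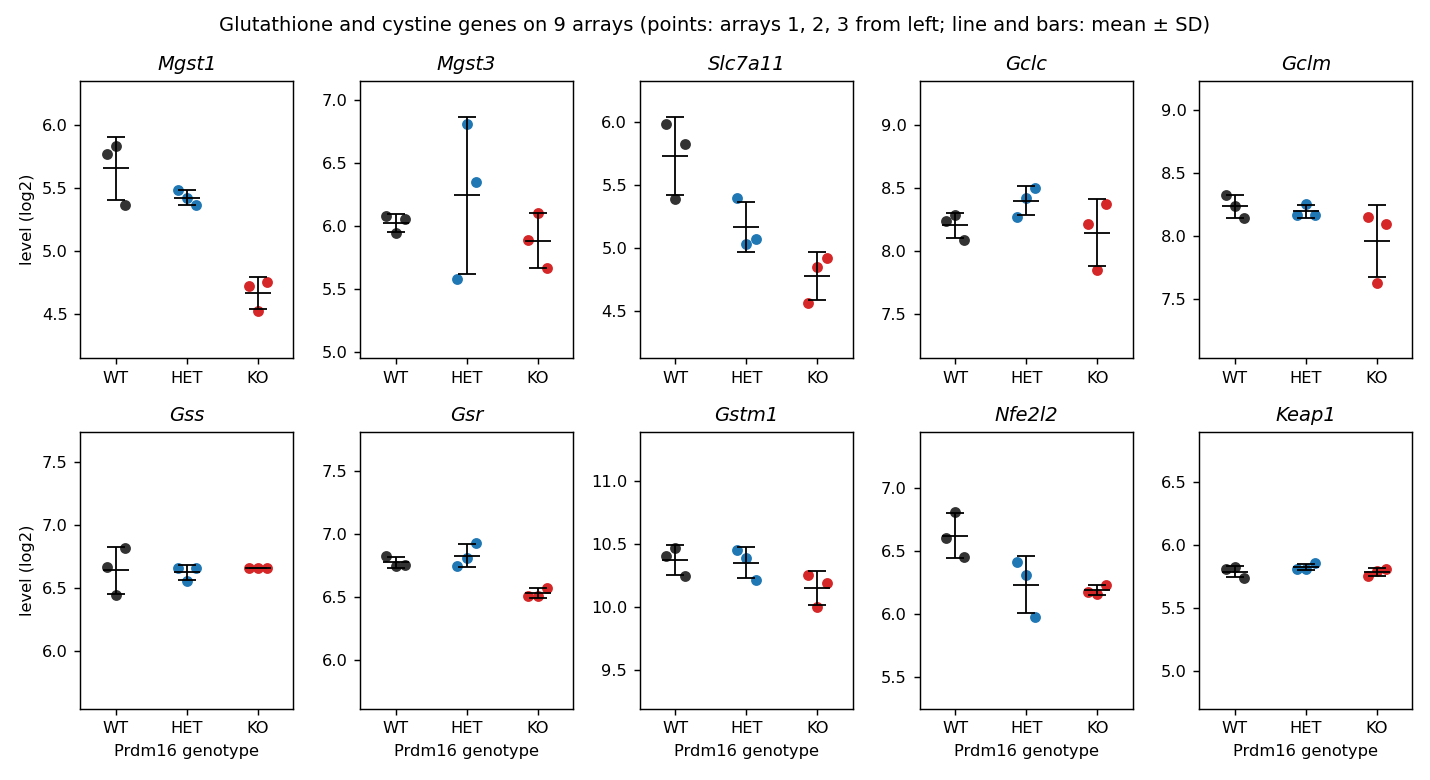
Log2 level (vertical axes, all of the same span) of the 10 genes on the WT, HET and KO arrays, with points for arrays 1 to 3 from left to right and a line with bars for the mean and SD (n = 3). The KO points of Mgst1, Slc7a11 and Gsr lie below all others, the HET points of Mgst3 are the most spread, and those of Keap1 and Gss lie nearly level.

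The promoters of both fallen genes are shown because, in the windows searched, each held an exact match to a different textbook stress element. Promoter sequences from RefSeq (GRCm38.p6) were matched by symbol for 8 of the 10 genes, Mgst1 and Gstm1 with 2 start sites each; Gclc and Gsr had no entry. The antioxidant response element core bound by NRF2 with its small MAF partners was searched as TGACNNNGC on both strands, in windows from 250 bases before to 50 after the start. It occurred in 3 of the 8 genes, Mgst1, Gclm and Nfe2l2. Of all 32851 promoter windows 12.4% held it, a share of windows and not of genes, and a gene with 2 windows can match in either. An element of ATF4, the factor of the amino acid and integrated stress response, was searched as TGATGCAA on both strands. Among the 8 genes it was in Slc7a11, which held it 2 times in opposite orientation, at bases -66 to -59 and -47 to -40 from the start, and it occurred in 0.895% of all windows. No exact match to the ARE core as searched lay in the Slc7a11 window, and near matches and bases outside the windows were not searched. No window of the 8 genes held both motifs, and a match describes the sequence only. The 250 bases before the start are printed 5′ to 3′ along the gene, with matches of either motif in capitals:
Mgst1 (upstream start site, chr6:138140277-138140526, plus strand): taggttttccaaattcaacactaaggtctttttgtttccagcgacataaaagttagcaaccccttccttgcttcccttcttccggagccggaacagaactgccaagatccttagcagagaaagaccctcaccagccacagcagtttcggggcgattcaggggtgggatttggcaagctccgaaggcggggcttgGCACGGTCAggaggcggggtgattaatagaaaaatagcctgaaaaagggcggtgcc
Slc7a11 (chr3:50443614-50443863, minus strand): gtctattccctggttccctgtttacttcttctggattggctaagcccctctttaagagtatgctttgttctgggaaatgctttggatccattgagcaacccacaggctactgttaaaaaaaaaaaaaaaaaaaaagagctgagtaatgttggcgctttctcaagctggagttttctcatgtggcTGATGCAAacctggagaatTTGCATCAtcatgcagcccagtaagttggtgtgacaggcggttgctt
Gclm (chr3:122245307-122245556, plus strand): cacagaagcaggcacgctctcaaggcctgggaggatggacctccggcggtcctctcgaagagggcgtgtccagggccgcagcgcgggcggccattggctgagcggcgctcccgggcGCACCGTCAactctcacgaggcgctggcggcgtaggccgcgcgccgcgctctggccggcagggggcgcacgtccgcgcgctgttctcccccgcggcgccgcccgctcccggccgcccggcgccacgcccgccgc
Nfe2l2 (chr2:75704664-75704913, minus strand): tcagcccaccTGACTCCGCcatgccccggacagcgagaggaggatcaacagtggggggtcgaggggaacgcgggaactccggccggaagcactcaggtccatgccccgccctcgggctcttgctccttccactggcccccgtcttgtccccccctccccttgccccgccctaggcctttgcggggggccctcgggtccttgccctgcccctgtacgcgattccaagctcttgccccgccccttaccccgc

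In Mgst1 and Gclm the capitals mark the core on the opposite strand, at -56 to -48 and -134 to -126, and in Nfe2l2 on the gene's own strand, at -240 to -232. The second Mgst1 start site, the Mgst3, Gss and Keap1 windows and both Gstm1 windows held neither motif. Of the 3 genes with the core, Mgst1 was called and Gclm and Nfe2l2 were not.

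None of the synthesis genes was called. Gclc, the catalytic subunit of glutamate-cysteine ligase, was at 8.24, 8.29 and 8.09 in WT, 8.28, 8.42 and 8.51 in HET, and 8.22, 7.86 and 8.37 in KO. The genotypes overlapped, with KO replicate 2 lowest. KO minus WT was -0.059 (SE 0.13, interval -0.34 to 0.22). Gclm, the modifier subunit that raises the activity of the ligase, read 8.32, 8.24 and 8.14 in WT, 8.17, 8.26 and 8.17 in HET, and 8.15, 7.63 and 8.10 in KO. Its KO arrays lay below all HET arrays but not below WT replicate 3, and KO replicate 2 was again lowest. KO minus WT was -0.28 (SE 0.13, interval -0.56 to 0.0058, adjusted p = 0.82) and -0.11 without KO replicate 2. Gss, glutathione synthetase, was at 6.67, 6.45 and 6.82 in WT, 6.66, 6.56 and 6.66 in HET, and 6.66 on all 3 KO arrays. Its spread in KO (SD 0.0024) was far below that in WT (0.19), and 4 arrays held exactly equal values. KO minus WT was 0.016 (SE 0.095, interval -0.19 to 0.23).

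Exactly equal values on 2 or more arrays occurred in 4 of the 10 genes (Mgst1, Gss, Gsr and Keap1) and in 62.9% of all genes. They are in the deposited table. In Gss and Keap1 some of the equal values lay within a genotype, where they can make the spread smaller. Those of Mgst1 and Gsr lay between a WT and a HET array, so they are not part of the spread within a genotype.

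Gsr, glutathione reductase, which returns oxidised glutathione to its working form, was lower in every KO array than in any other. The levels were 6.83, 6.75 and 6.75 in WT, 6.75, 6.81 and 6.93 in HET, and 6.51, 6.51 and 6.58 in KO. The difference was small and did not pass over all genes: -0.24 against WT (SE 0.075, interval -0.41 to -0.08, unadjusted p = 0.0081, adjusted p = 0.44) and -0.30 against HET (SE 0.075, interval -0.46 to -0.13, unadjusted p = 0.0024, adjusted p = 0.33). HET minus WT was 0.053, on the other side of WT from KO. When each array was left out, KO minus WT stayed between -0.27 and -0.22.

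Gstm1, a cytosolic mu-class transferase abundant in astrocytes and radial glia, was above the upper quartile of every array. It was at 10.41, 10.47 and 10.25 in WT, 10.45, 10.39 and 10.22 in HET, and 10.26, 10.0005 and 10.20 in KO. The genotypes overlapped, since KO replicate 1 lay above WT replicate 3. KO minus WT was -0.23 (SE 0.10, interval -0.45 to -0.0020, unadjusted p = 0.048, adjusted p = 0.81). The mu-class genes lie in a cluster of similar sequence and the positions of the probes are not known here, so signal from its relatives may be included.

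Nfe2l2, which encodes NRF2, was lower on all HET and all KO arrays than on any WT array. It measured 6.60, 6.81 and 6.45 in WT, 6.41, 6.31 and 5.97 in HET, and 6.17, 6.16 and 6.23 in KO. Neither difference passed over all genes: KO minus WT was -0.44 (SE 0.12, interval -0.71 to -0.16, unadjusted p = 0.0052, adjusted p = 0.36) and HET minus WT was -0.39 (SE 0.12, interval -0.66 to -0.12, unadjusted p = 0.0098, adjusted p = 0.99). KO and HET overlapped (KO minus HET -0.046, SE 0.12, interval -0.32 to 0.23), so the HET mean stood at 89.5% of the KO change. NRF2 is controlled mostly by protein stability, which these arrays do not measure. Keap1, the adaptor that targets NRF2 for breakdown, lay at 5.81, 5.82 and 5.73 in WT, 5.81, 5.81 and 5.85 in HET, and 5.75, 5.80 and 5.81 in KO. Its KO minus WT difference was the nearest to 0 of the 10 genes (-0.0033, SE 0.068, interval -0.15 to 0.15), within 0.15 log2 units of 0 at that interval, and 4 of its arrays held exactly the same value.

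**Figure D2:**
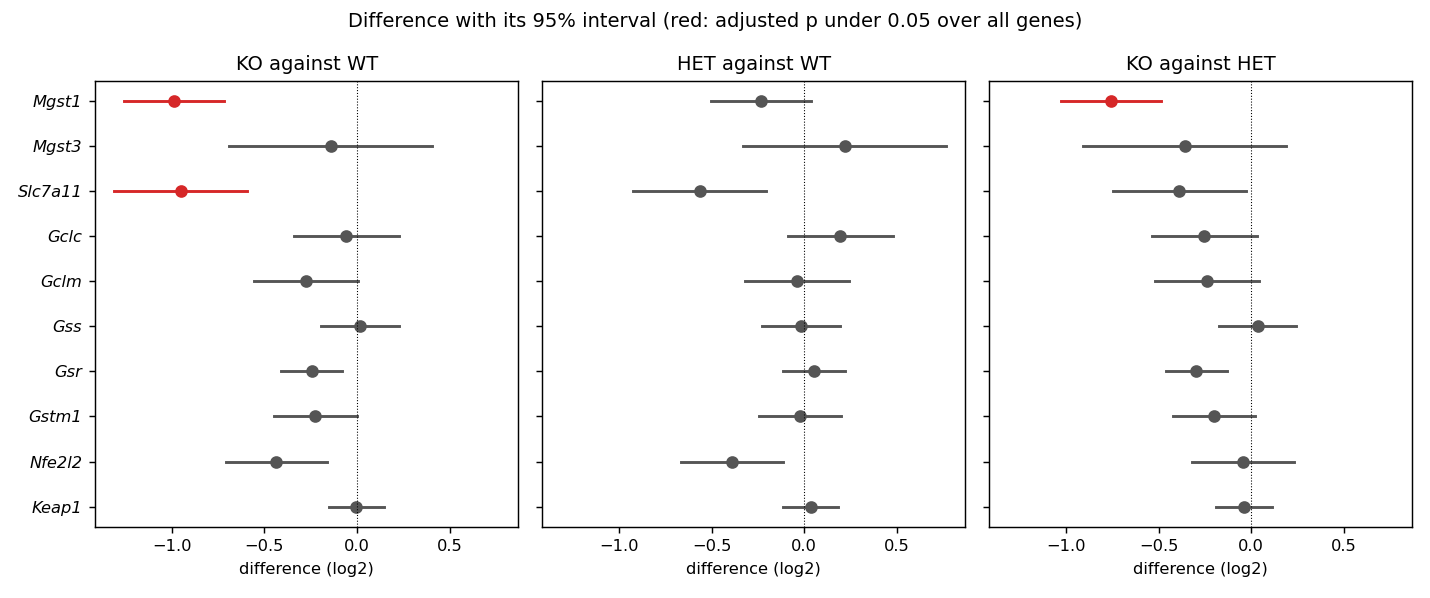
Difference in log2 level (horizontal axes) with its 95% interval for the 10 genes in the 3 comparisons; red marks an adjusted p under 0.05 over all genes. Mgst1 and Slc7a11 are red in KO against WT and Mgst1 in KO against HET, and no gene is red in HET against WT.

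Counted over the 10 genes, the comparison of KO with WT addresses the loss of both alleles: 2 fell and 0 rose, where 0.451% of all genes were called. An unadjusted p under 0.05 was reached by 5 of the 10, Mgst1, Slc7a11, Nfe2l2, Gsr and Gstm1 (6.15% of all genes), and 4 had groups that did not overlap (9.98% of all genes), all of them lower in KO. The difference was below 0 in 9 of the 10, against 47.3% of all genes, and the median was -0.23 against 0.0064 over all genes. HET against WT addresses the loss of 1 allele. No gene of the 10 was called by limma, as none was over all genes (0%); 2, Slc7a11 and Nfe2l2, had an unadjusted p under 0.05 (4.05% of all genes, 808 genes), and 1, Nfe2l2, had groups that did not overlap (6.85%). The median there was -0.02 against 0.0039 over all genes. KO against HET addresses the loss of the remaining allele: 1 of the 10 fell, where 0.206% of all genes were called, 3 had an unadjusted p under 0.05 (6.16%) and 4 did not overlap (6.54%), namely Mgst1, Slc7a11, Gclm and Gsr. The median was -0.25 against 0.0029 over all genes. The 3 comparisons share their arrays, and the genes were chosen with earlier results of these arrays known, so these shares are a description.

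**Figure D3:**
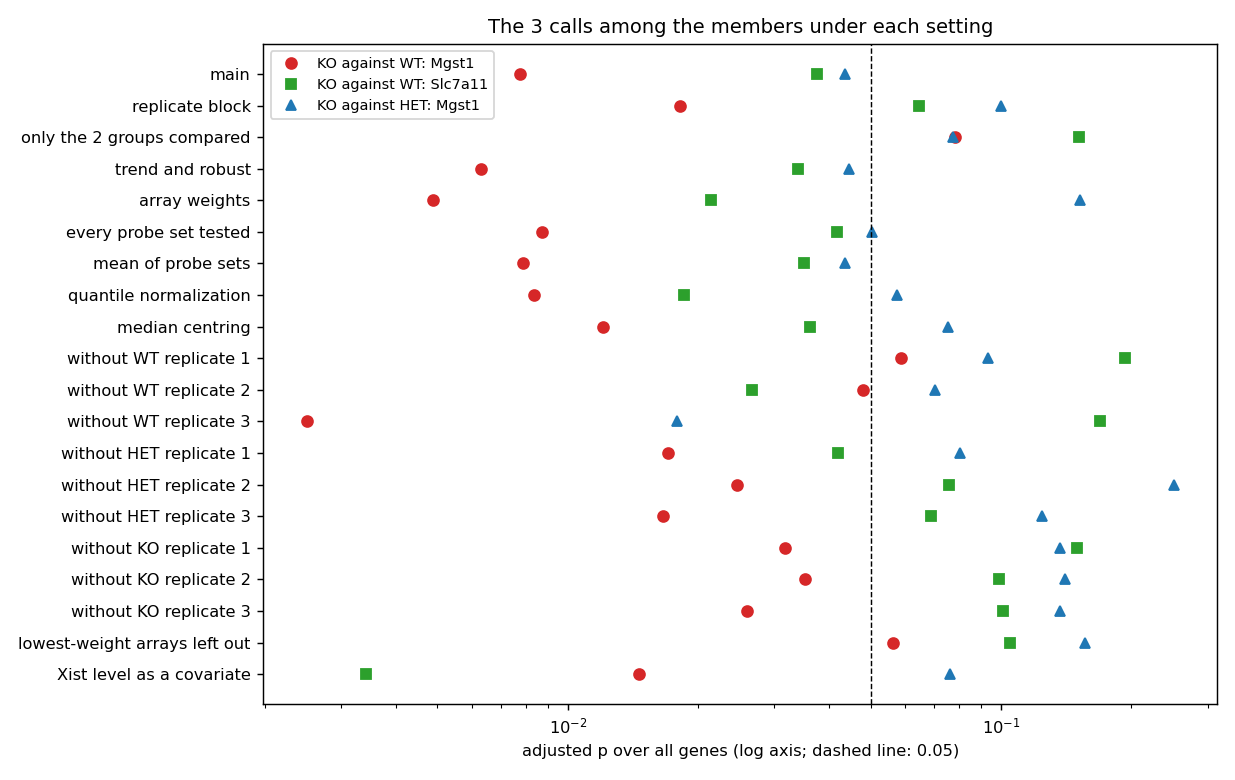
Adjusted p (horizontal log axis, dashed line at 0.05) of the 3 calls under the main setting and each alternative that gave a value. Mgst1 in KO against WT stays left of the line in all but 3 alternatives, Slc7a11 crosses it in 10 and Mgst1 in KO against HET in 16, each out of 19.

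The wider pathway was read from lists of related genes. Of 15 measured genes for the supply of cystine, cysteine and the other precursors, 1 rose in KO against WT and 0 fell, with a median of 0.043. The gene that rose does not supply cysteine but consumes it: Cdo1, cysteine dioxygenase, which oxidises cysteine on the way to taurine. Cdo1 was at 8.72, 8.86 and 8.41 in WT, 8.94, 9.42 and 9.14 in HET, and 9.92, 9.34 and 9.90 in KO. All KO arrays lay above all WT arrays, and HET replicate 2 lay above KO replicate 2. It rose by 1.06 on the log2 scale (SE 0.18, adjusted p = 0.038), with HET minus WT at 0.50 (adjusted p = 0.99). This call was lost without any 1 of WT replicates 1, 2 or 3, HET replicates 2 or 3, or KO replicates 1 or 3, with median centring (0.062) or with HET arrays kept out of the fit (0.15), and it held with HET replicate 1 and KO replicate 2 both left out (0.027). The highest adjusted p over all settings was 0.18. Slc3a2, the heavy chain that carries the Slc7a11 protein to the membrane, lay at 0.14 (SE 0.11) and did not pass. Slc1a2, a glutamate carrier of astrocytes, lay at -0.62 (SE 0.12, adjusted p = 0.077) and Slc6a9, a glycine carrier, at 0.54 (SE 0.12, adjusted p = 0.155).

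Of 15 genes that supply NADPH, the electron source of glutathione reductase, 1 fell and 0 rose in KO against WT (median 0.013). It was Me1, cytosolic malic enzyme, at 7.02, 6.95 and 6.87 in WT, 7.03, 7.10 and 7.05 in HET, and 6.57, 6.17 and 6.36 in KO. WT and HET overlapped, and all KO arrays lay below both. Me1 fell by 0.58 on the log2 scale against WT (SE 0.10, adjusted p = 0.040) and by 0.69 against HET (SE 0.10, adjusted p = 0.030), the 1 call of this list in that comparison. The call against WT was lost when any 1 array other than KO replicate 1 was left out, and the call against HET when any 1 array other than HET replicate 1 or KO replicate 1 was, and both with median centring (highest adjusted p 0.23 and 0.20). With HET replicate 1 and KO replicate 2 both left out the adjusted p was 0.10 against WT and 0.078 against HET, with Xist as a covariate 0.085 and 0.064, and with only the genotypes compared in the fit 0.18 and 0.20. Me1 had 2 promoter windows: 1 held the ARE core at -6 to 2, across the start, and the other held neither motif. In KO against WT 3 other genes of the list had an unadjusted p under 0.05, all higher: Aldh1l2, a mitochondrial folate enzyme (0.39), and Pgd (0.27) and Taldo1 (0.20) of the pentose phosphate pathway. G6pdx, the first enzyme of that pathway, had no probe set of its own name alone and was not analysed here.

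The other lists gave no call in KO against WT by limma. Among 21 further glutathione transferases 0 had an unadjusted p under 0.05 (median -0.03), with Gstk1 at -0.25 and Gstz1 at -0.16 showing the smallest p. Among 12 glutathione peroxidases and glutaredoxins 0 did (median 0.032; Gpx6 0.16, Glrx3 0.28). Of 20 genes of glutathione turnover and export 3 did, 1 higher and 2 lower (median -0.03). The lower ones were Gja1, a gap junction protein of astrocytes whose hemichannels can release glutathione (-1.03, SE 0.21, adjusted p = 0.088), and Chac2, a glutathione-degrading cyclotransferase (-0.27). Gja1 was the 1 call of that list in KO against HET (-1.35, SE 0.21, adjusted p = 0.041), lost when any 1 array was left out, without HET replicate 1 and KO replicate 2 (0.078), with Xist as a covariate (0.067) and with WT arrays kept out of the fit (0.29).

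The lists around NRF2 that hold none of the 10 genes had no call in KO against WT. Of 15 partners and regulators of NRF2, 0 were called and 2 had an unadjusted p under 0.05 (median 0.053), the kinase gene Prkcd at -0.35 and the autophagy receptor Sqstm1, itself an NRF2 target, at 0.23. Of 19 further NRF2 target genes 0 were called, 10 lay above 0 and 9 below (median 0.075), and 3 had an unadjusted p under 0.05: Cbr1, a carbonyl reductase, at 0.40 (SE 0.11, adjusted p = 0.37), Ftl1, ferritin light chain, at 0.31 (SE 0.11), and Nqo1, a quinone reductase, at -0.38 (SE 0.12, adjusted p = 0.48). Of 11 thioredoxin system genes 0 were called, 8 lay below 0 (median -0.09) and 1, the peroxiredoxin gene Prdx4, had an unadjusted p under 0.05 (-0.23), with Txnip, which inhibits thioredoxin, next at -0.29. In HET against WT none of the 8 lists had a call, and their medians lay between -0.04 and 0.09. In KO against HET, Me1 and Gja1 were the only calls in these lists, and the medians lay between -0.14 and 0.03.

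**Figure D4:**
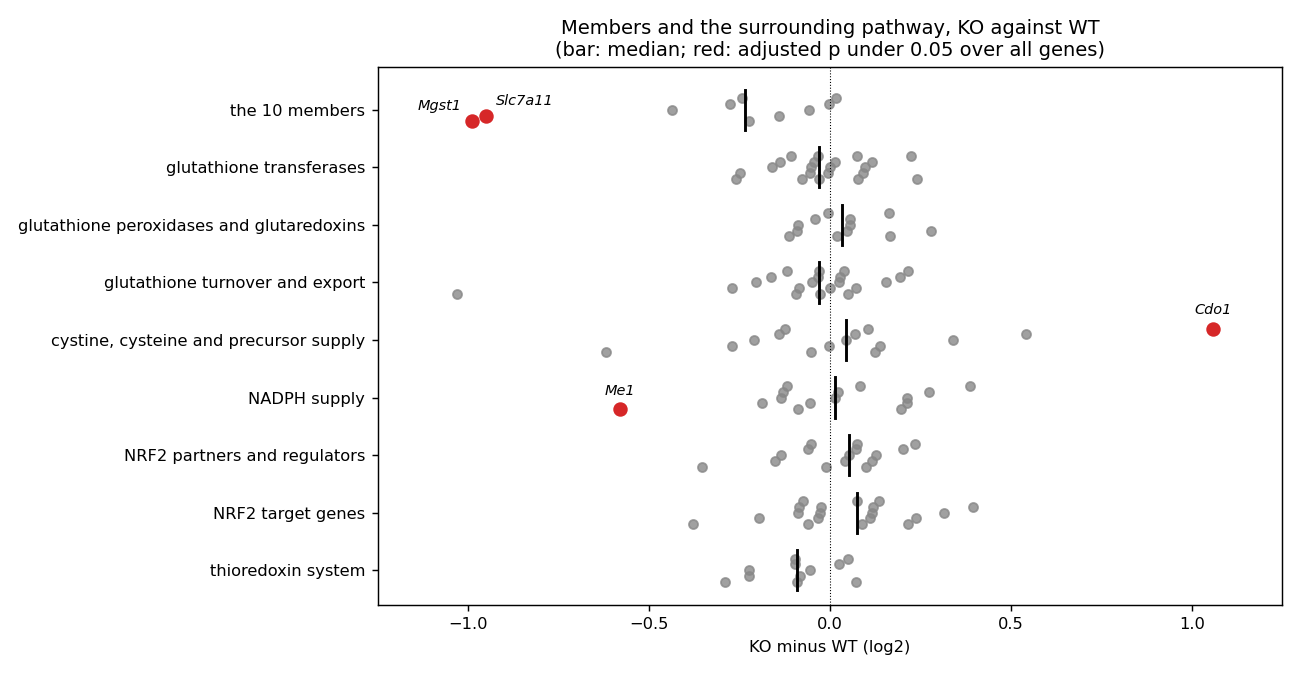
KO minus WT log2 difference (horizontal axis) of each measured gene of the 10 and of the 8 related lists, with a bar for the list's median and red for an adjusted p under 0.05 over all genes. Mgst1, Slc7a11 and Me1 are the red points below 0 and Cdo1 the one above, and the list medians apart from the 10 genes lie within 0.1 of 0.

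Cell type markers were read beside these results, because in a dissected tissue fewer cells of a type and less RNA per cell cannot be told apart. Radial glia markers were well represented, with 11 of 14 above the median of every array, as were astrocyte markers with 11 of 15, postmitotic neuron markers with 10 of 13 and endothelial and pericyte markers with 6 of 9. Of 15 astrocyte markers 3 fell in KO against WT (Clu, Apoe and Aqp4), 8 had an unadjusted p under 0.05, all lower, 11 lay below 0 and the median was -0.31. Their mean log2 level was 7.73 to 7.86 in WT, 7.65 to 7.90 in HET and 7.38 to 7.46 in KO. Clu, a secreted chaperone, changed by -1.05 (SE 0.14), Apoe, a lipid carrier, by -0.86 (SE 0.11) and Aqp4, a water channel, by -1.02 (SE 0.17). Leaving out KO replicate 2, KO replicate 3, WT replicate 1 or WT replicate 2 ended the Clu call, that of Apoe ended with either of those WT arrays out, and that of Aqp4 with any 1 array out other than HET replicate 2 or KO replicate 2 (highest adjusted p 0.093, 0.063 and 0.17). All 3 calls were also lost with HET replicate 1 and KO replicate 2 both out (adjusted p 0.093 for Clu, 0.057 for Apoe and 0.068 for Aqp4), and that of Aqp4 with HET arrays kept out of the fit (0.13). Slc1a2 and Gja1, named above, are also on this list. Of 14 ependymal and cilia markers 0 were called and 13 lay below 0, 8 of them with an unadjusted p under 0.05 (median -0.23; Enkur -1.18, Rsph4a -0.96), with mean levels of 5.76 to 5.82 in WT, 5.63 to 5.76 in HET and 5.34 to 5.55 in KO. Radial glia markers had 0 calls of 14, with 8 below 0, 4 with an unadjusted p under 0.05, all lower, and 3 whose groups did not overlap, all lower, and their mean levels overlapped, 7.99 to 8.15 in WT and 7.88 to 8.05 in KO (Prom1 -0.57, Lhx2 -0.42). Groups did not overlap in 9 of the 15 astrocyte markers (8 lower, 1 higher) and 8 of the 14 ependymal markers (all lower). Over all genes that share was 9.98%. In KO against HET, where Mgst1 was also called, 3 of the 15 astrocyte markers fell (Clu -1.02, Apoe -1.01 and Gja1 -1.35) and 1 of the 14 ependymal markers fell (Rsph4a -1.19, limma adjusted p = 0.044). Of the 14 radial glia markers 0 were called in that comparison, and 2 had an unadjusted p under 0.05, 1 higher and 1 lower. Without HET replicate 1 and KO replicate 2 the adjusted p there was 0.12 for Clu, 0.062 for Apoe and 0.15 for Rsph4a. The Rsph4a call was lost when any 1 array other than KO replicate 1 was left out, and that of Clu without WT replicate 1, HET replicate 2, KO replicate 2 or KO replicate 3. With WT arrays kept out of the fit the limma adjusted p was 0.14 for Clu, 0.072 for Apoe and 0.32 for Rsph4a. Array weights ended the calls of Clu (0.077) and Rsph4a (0.14), as did Xist as a covariate (0.053 and 0.066). Median centring (0.058) and testing every probe set (0.05035) also ended that of Rsph4a. The part of these cell types in the falls of Mgst1 and Slc7a11 was not tested.

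The remaining marker lists had few calls. Choroid plexus markers had 1 that rose of 9, the clotting factor F5 (0.89, SE 0.10), with Calml4 at 0.19, and meninges and fibroblast markers 1 that fell of 8, Ogn (-1.37, SE 0.19), with Lum at -0.18. The Ogn call ended with WT replicate 1 or 2 left out, with HET replicate 1 and KO replicate 2 left out together (adjusted p 0.070) and with HET arrays kept out of the fit (0.12). None of the 19 settings that gave F5 a value ended its call in KO against WT. It had no value with the dimmest 1 in 3 genes left out. Of the 8 meninges markers 7 lay below 0 in KO against WT, and the mean level of the 8 was 5.64 to 5.73 in WT, 5.46 to 5.75 in HET and 5.33 to 5.56 in KO, below every WT array. That mean includes the large fall of Ogn, the only 1 of the 8 with an unadjusted p under 0.05. The median difference of the 8 was -0.10. The choroid plexus markers had mean levels of 5.25 to 5.26 in WT, 5.14 to 5.44 in HET and 5.30 to 5.42 in KO. The part of both in the falls of Mgst1 and Slc7a11 was not tested. There were 0 calls of 13 for postmitotic neurons (Tbr1 -0.66, Nefm 0.44), of 8 for the oligodendrocyte lineage (Cnp -0.43, Pdgfra 0.27), of 9 for microglia and macrophages (Cd68 0.26, Laptm5 0.18), of 9 for endothelial cells and pericytes (Slco1a4 -0.27, Pdgfrb -0.29) and of 3 for red blood cells (Alas2 -0.19, Epb42 -0.04). Of these 5 lists, 3, 2, 0, 1 and 0 members had an unadjusted p under 0.05.

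**Figure D5:**
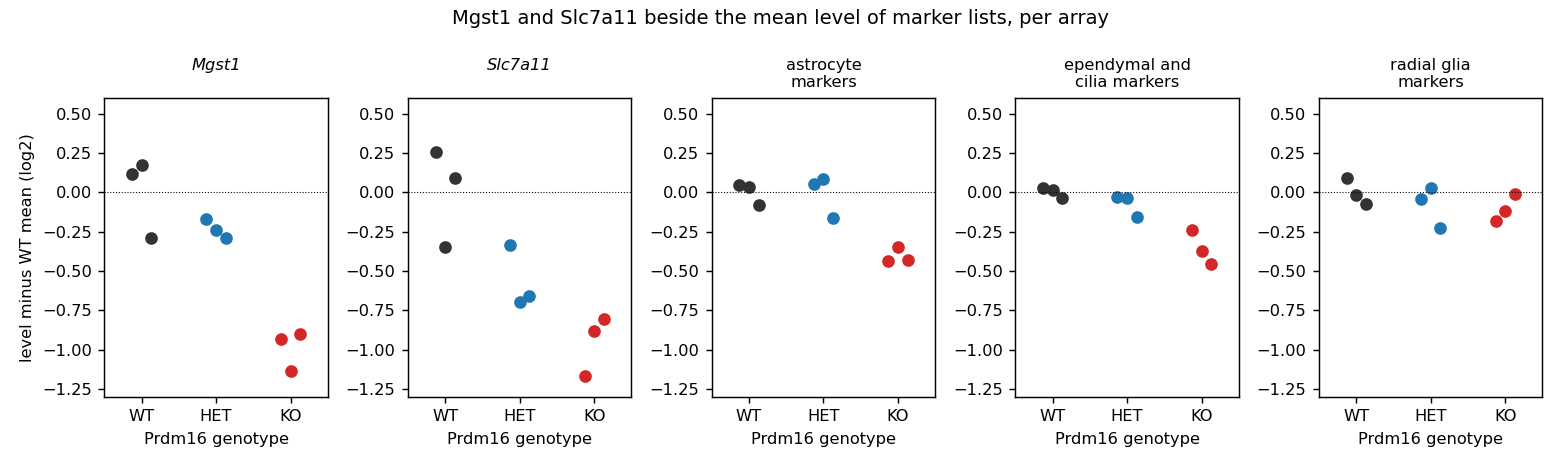
Level minus the WT mean (log2, vertical axes) on each array for Mgst1, Slc7a11 and the mean of the astrocyte, ependymal and radial glia marker lists, with points for arrays 1 to 3 of each genotype from left to right. Astrocyte and ependymal markers, like both genes, lie lowest in KO. The HET and WT arrays overlap in each panel, for Slc7a11 because HET replicate 1 lies just above WT replicate 2.

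The genes whose levels followed Mgst1 most closely over the 9 arrays were Ppp1r36 (Pearson r = 0.986), Gng12, a G protein gamma subunit (0.981), Papss2, which makes the donor for sulfation (0.980), Lrriq1 (0.972) and Fgd4, an activator of CDC42 (0.967). Within genotypes, after each genotype's mean was taken off, the same r was 0.848, 0.935, 0.786, 0.866 and 0.695. Fgd4 held exactly the same value on all 3 HET arrays. Ppp1r36 was at 5.88, 5.85 and 5.50 in WT, 5.59, 5.54 and 5.37 in HET and 4.65, 4.55 and 4.54 in KO, so that WT replicate 3 was the lowest WT array for it as for Mgst1. The genes closest to Slc7a11 were Rnf180 (0.935), Tmem243 (0.933), Cox6b2 (0.926), Olfml2a (0.921) and Sall3 (0.910), with 0.646, 0.602, 0.748, 0.680 and 0.638 within genotypes. In the same order KO minus WT was -0.20, -0.63, -0.088, -0.64 and -0.33, and only Tmem243 was called (limma adjusted p = 0.012). Tmem243 was at 7.64, 7.40 and 7.56 in WT, 7.15, 7.15 and 7.28 in HET and 6.87, 6.87 and 6.97 in KO. Papss2, as Mgst1, had its HET mean nearer to WT (6.94, 6.67 and 5.63 as WT, HET and KO means), and Tmem243, as Slc7a11, had it a little nearer to KO (7.53, 7.19 and 6.90). These correlations pick the highest of all genes over arrays that share genotype and processing, and are a description.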

How the data were processed

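RNA of 9 samples, 3 per genotype, was measured on Affymetrix Mouse Gene ST 1.0 arrays after NuGEN amplification, per the labels' protocols. The values the authors deposited are on the log2 scale and cover 28940 probe sets; RMA, affy and limma are named, without versions, per the submitters' processing notes, and the build and annotation used are not given in the sources used here. Detection calls were not used here, and the number of arrays limits the precision.

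Probe sets with 1 gene symbol in the platform annotation (21789) were kept; 1621 with several symbols and 5530 unlisted were left out. The probe set with the highest mean stood for a gene, giving 19938 genes. A linear model with 1 coefficient per genotype was fitted to all 9 arrays (limma 3.58.1 in R 4.3.3, lmFit then eBayes, two-sided tests) without further normalization or filter, and p was adjusted over all genes with Benjamini-Hochberg; under 0.05 was a call. Intervals are 95% intervals from that fit. The method was tested on simulated data.

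The 10 genes and the lists were chosen with earlier results of these data known. Named besides the 10 are called members of each pathway list, otherwise the 2 of lowest raw p for KO minus WT, likewise the 2 of each marker list, and the 5 genes most correlated with each called gene of the 10, predicted genes passed over; Slc3a2, Slc1a2, Slc6a9, Chac2, Aldh1l2, Pgd, Taldo1, Ftl1 and Aqp4 were named after their values were seen. Promoters came from RefSeq (GRCm38.p6), whose gene table held 21698 of the 21789 probe sets' gene IDs. The alternatives are described in the closing section.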

Additional observations from a re-analysis of the deposited data

How the results depend on the processing

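The choices varied were a block for the replicate number, the arrays in the fit, eBayes (trend with robust) and array weights. The dimmest 1 in 3 genes were also left out, and Mgst1, Slc7a11 and F5 then have no value. Further choices were testing every probe set, averaging probe sets, quantile normalization, median centring, a threshold of 0.10 and each array left out. Added after seeing the data were HET replicate 1 and KO replicate 2 both left out, and Xist as a covariate.

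Genes called in KO against WT, 90, became 151 with array weights, 33 with only the groups compared, 50 without HET replicate 1 and KO replicate 2, and 23 to 77 when each array was left out. The 41 of KO against HET became 8 with only the groups compared, 24 with median centring, 24 with Xist as a covariate, and 12 to 75 when each array was left out. HET against WT stayed at 0 in all of them. Same-numbered arrays of different genotypes did not deviate together (0 of 9 pairs above 0.1, highest r 0.055). These r values were not set beside those of differently numbered arrays, so they cannot tell whether the numbers mark a pairing. With the replicate block the counts were 72, 0 and 19. Slc7a11 in KO against WT (limma adjusted p = 0.065) and Mgst1 in KO against HET (0.0999) were then not called, while Mgst1 in KO against WT was (0.018). The block also ended the calls of Cdo1 (0.0997), Me1 (0.080) and Aqp4 (0.065) in KO against WT and of Me1 (0.068), Gja1 (0.058) and Rsph4a (0.068) in KO against HET.

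Of 198 values of the 10 genes per comparison, 177, 192 and 179 kept direction and side of the threshold in KO against WT, HET against WT and KO against HET, 13, 0 and 16 lost a call, and 8, 6 and 3 changed sign. The sign changes were all in genes not called. In KO against WT, Gclc turned to 0.088 without the lowest-weight arrays, and Keap1 to 0.015 with quantile normalization and 0.0088 with median centring. With each array left out Gclc ranged from -0.17 to 0.088, Gss from -0.082 to 0.10 and Keap1 from -0.030 to 0.014. In HET against WT, Mgst3 ranged from -0.063 (without HET replicate 2) to 0.55, Gclm from -0.084 to 0.0057, Gss from -0.12 to 0.069 and Gstm1 from -0.088 to 0.045. In KO against HET, Nfe2l2 was 0.0079 with array weights, 0.059 without the lowest-weight arrays and -0.17 to 0.043 with each array left out. The cause was not tested. Low levels of Mgst1 and Slc7a11 in KO limit how far their falls can be measured.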
